A study of Homo sapiens with 4 samples.

Results

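The genes described here are 10 regulators that set whether a cell survives a signal from a tumour necrosis factor (TNF) receptor: the inhibitor of apoptosis (IAP) genes *BIRC2*, *BIRC3*, *BIRC4* (now called *XIAP*) and *BIRC6*, the TNF receptor associated factors *TRAF1*, *TRAF2* and *TRAF3*, the ubiquitin-editing enzyme *TNFAIP3* (A20) with its binding partner *TNIP1*, and *CFLAR* (c-FLIP). They were chosen by name, through the gene symbol printed beside each array probe, which found all 10 among the 27739 gene IDs in use. They have 11 of the 33096 gene probes on the array, 1 probe per gene and 2 for *BIRC4*. The study asked what happens to gene expression in LN229, a long-established cell line from a human glioblastoma, when *SOX2*, a transcription factor of stem cells and gliomas, is knocked down. Total RNA of cells transfected with siRNA against *SOX2* (SOX2 knockdown, 2 arrays) and of cells given a non-targeting control siRNA (mock, 2 arrays) was hybridised to 1-colour Applied Biosystems arrays that are read by chemiluminescence. Both groups were of the same line, cultured in DMEM, and the 2 replicates of each were separate transfections per the study's methods. Transfection is transient and acts in a single cell line, which limits both groups as a model, and the labels do not say which siRNA was used on which array.

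IAP proteins carry BIR domains. XIAP binds and blocks caspases, whereas the products of *BIRC2* and *BIRC3*, cIAP1 and cIAP2, are ubiquitin ligases that TRAF2 brings to TNF receptors, where they mark RIPK1 and so open the route to NF-kappaB. In unstimulated cells the same ligases, together with TRAF2 and TRAF3, keep the kinase NIK (*MAP3K14*) low. *BIRC3* and *TNFAIP3* are textbook NF-kappaB targets, and A20 trims ubiquitin chains and so feeds back on the pathway. c-FLIP keeps caspase-8 from being activated at death receptors.

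The promoters of *BIRC3* and *TNFAIP3* are printed first because those are the genes that differed most between the groups. That of *BIRC2* is shown as the paralogue beside *BIRC3* on the same chromosome, and that of *TNIP1* as one that holds a kappaB match beside a signal that differed little. Each is the 250 bases before a transcription start in RefSeq (GRCh38.p14), 5′ to 3′ on the gene's own strand. Capitals mark matches, on either strand, to the kappaB consensus, the site known for binding NF-kappaB dimers.
BIRC3, chr11:102317234-102317483, plus strand: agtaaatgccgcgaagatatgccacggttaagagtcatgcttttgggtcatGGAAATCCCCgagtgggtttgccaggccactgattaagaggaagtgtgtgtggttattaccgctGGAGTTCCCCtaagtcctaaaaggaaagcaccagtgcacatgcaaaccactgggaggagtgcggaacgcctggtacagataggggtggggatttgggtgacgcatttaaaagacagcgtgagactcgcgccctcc
TNFAIP3, chr6:137867009-137867258, plus strand: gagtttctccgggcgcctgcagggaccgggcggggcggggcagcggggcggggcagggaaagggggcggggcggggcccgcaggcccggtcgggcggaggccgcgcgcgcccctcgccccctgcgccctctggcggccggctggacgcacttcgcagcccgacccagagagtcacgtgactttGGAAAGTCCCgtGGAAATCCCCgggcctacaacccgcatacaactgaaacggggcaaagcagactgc
BIRC2, chr11:102346964-102347213, plus strand: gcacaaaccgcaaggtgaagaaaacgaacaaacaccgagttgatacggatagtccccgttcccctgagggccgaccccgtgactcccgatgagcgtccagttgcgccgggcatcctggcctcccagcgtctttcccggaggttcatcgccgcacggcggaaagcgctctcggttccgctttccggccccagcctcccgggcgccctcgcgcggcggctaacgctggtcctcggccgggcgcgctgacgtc
TNIP1, chr5:151081035-151081284, minus strand: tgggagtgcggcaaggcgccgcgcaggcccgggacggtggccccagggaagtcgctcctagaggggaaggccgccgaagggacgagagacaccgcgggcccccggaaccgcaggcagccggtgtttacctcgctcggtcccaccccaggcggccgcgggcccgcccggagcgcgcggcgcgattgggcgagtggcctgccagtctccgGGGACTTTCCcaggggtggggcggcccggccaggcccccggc
The *BIRC3* window held 2 matches, at 199 to 190 and 135 to 126 bases before the start. The *TNFAIP3* window also held 2, closer to the start at 67 to 58 and 55 to 46 bases, with only a pair of bases between them. GGAAATCCCC, read on the plus strand, stood in both windows. RefSeq gave 20 such windows for the 10 genes. Of these, 6 windows held a match, in 6 genes: *BIRC3*, *BIRC6*, *TRAF3*, *TNFAIP3*, *TNIP1* and *CFLAR*. Over all genes searched, 9.96% of 35116 windows held a match, and 11.8% of 27305 genes had such a window. The 10 genes have more windows per gene than all genes searched, which raises a count by gene. The SOX core motif CATTGT, on either strand, was in 0 of the 20 windows and in 9.29% of all windows. A match is a run of letters and not evidence of binding, and no match says only that these letters are not in the window. The files give no probe sequences.

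Signals are given as scaled signal, the deposited signal divided by the 75th percentile of that array, so that 1 is a bright but common level. Since each probe binds with its own strength, levels can be compared between arrays for 1 probe but not between probes. The 75th percentile lay between 5.96 and 6.88 on the 4 arrays, and 63.8% to 69.4% of probes had a ratio of signal to noise (S/N) above 3, the limit used here for a detected probe. After the filter, which asked for that on both arrays of at least 1 group, 21256 probes were tested. Correlation across probes was 0.986 between the mock arrays and 0.991 between the knockdown arrays, against 0.977 to 0.984 between arrays of different groups. As SW620, which comes from a colon cancer, is named in the treatment field alone and LN229 everywhere else, markers were checked. Of 12 glial and mesenchymal glioma genes, 10 had S/N over 3 on every array. Of 12 colon epithelial genes, 2 did (*VIL1* and *KRT8*), another 6 had it on some arrays (among them *CDX2* and *LGALS4*, on both mock arrays), and 4 on none (*CDH1*, *CDH17*, *KRT19* and *KRT20*). Of 10 leukocyte genes, 5 had it on every array, 2 on some and 3 on none (*AIF1*, *CD53* and *CSF1R*).

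The knockdown itself was checked first. The scaled signal of *SOX2* was 0.467 and 0.701 in mock and 0.209 and 0.149 after knockdown. The groups did not overlap, and the knockdown mean was 0.307 of the mock mean. On the log2 scale the difference was -1.69 ± 0.28 (SE), and its limma p adjusted over all probes by the Benjamini-Hochberg method was 0.117. S/N was 3.17 and 3.06 on the knockdown arrays, so *SOX2* there was read just above the detection limit.

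*BIRC3* and *TNFAIP3* were higher in the SOX2 knockdown, by 3.36-fold and 2.83-fold of the replicate means, and no probe of the other 8 genes reached 2-fold in either direction. All 11 probes passed the filter, with S/N over 3 on each of the 4 arrays. The study's cutoff, 2-fold of the replicate means without a test, was passed by 2 of the 11 probes, both higher. Of all probes tested 2.61% passed it (1.57% higher and 1.04% lower). The study applied it after averaging probes by gene ID, scaling in GeneSpring and asking for S/N over 3 in 1 arm, whereas single probes were used here. At a limma adjusted p under 0.05 the count was 0 of 11, as it was 0 of 21256 for all probes, whose smallest adjusted p was 0.0582. At an adjusted p under 0.1 it was 2 of 11 against 1.13%, a call that both genes lost in 9 of 20 alternatives, among them each array left out and the replicate block (limma adjusted p 0.203 for *BIRC3* and 0.255 for *TNFAIP3*). At an unadjusted p under 0.05 it was the same 2 genes against 17.1%. Groups did not overlap for 7 of the 11 probes, 4 higher and 3 lower, beside 47.0% of all probes (21.2% higher and 25.8% lower). The median log2 change of the 11 probes was 0.05, and that of all probes was 0.00. With 2 arrays against 2, an exact permutation test of a single gene cannot give a p below 0.333, so the tests given are those of a model that shares the spread between probes.

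**Figure D1:**
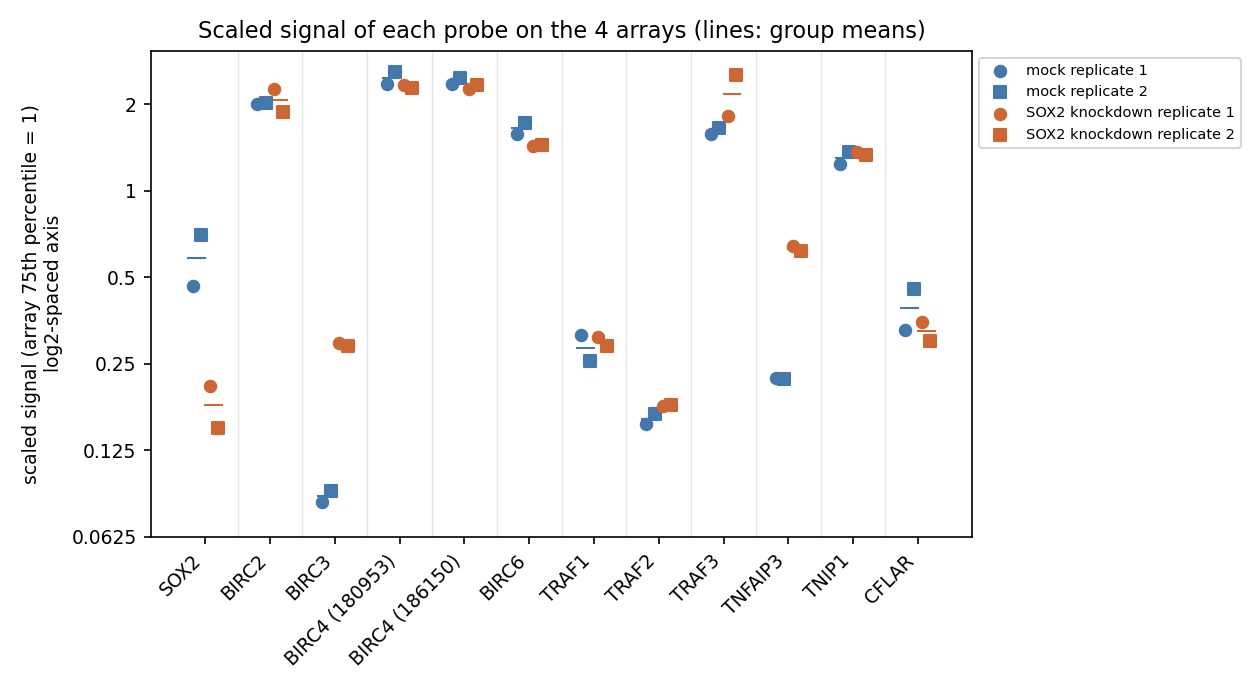
Scaled signal (log2-spaced axis, array 75th percentile = 1) of *SOX2* and of the 11 probes on each array, blue for mock and orange for SOX2 knockdown, circles and squares for replicates 1 and 2, short lines for group means. The knockdown points of *BIRC3* (0.294 and 0.287) and *TNFAIP3* (0.641 and 0.616) stand clear of their mock points, those of *SOX2* stand below, and heights of different probes cannot be compared.

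Of the IAP genes, *BIRC3*, the ligase gene that NF-kappaB induces, was the one that differed. Its scaled signal was 0.0825 and 0.0901 in mock and 0.294 and 0.287 in SOX2 knockdown. Both knockdown arrays were thus above both mock arrays, and the gap was many times the distance between replicates. Means were 0.0863 ± 0.0054 and 0.290 ± 0.0049 (SD, n = 2 each). The log2 difference was 1.75 ± 0.13 (SE), with a 95% interval of 2.64-fold to 4.29-fold and a limma adjusted p of 0.0645. By size it ranked 88 of the 21256 probes. S/N was 8.5 and 9.14 in mock and 20.9 and 21.6 in the knockdown, so *BIRC3* was detected in both groups, at a low signal in mock. In RNA of whole cultures, more cells with the transcript and more transcript per cell cannot be told apart.

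The paralogue *BIRC2* lies next to *BIRC3* in RefSeq's order of genes on chromosome 11. Its scaled signal was 2.01 and 2.02 in mock and 2.26 and 1.88 in the knockdown, so the knockdown arrays lay on either side of the mock pair. The log2 difference was 0.04 ± 0.15, and the 95% interval ran from 0.774-fold to 1.36-fold, which leaves out a change as large as that of *BIRC3*. Taken array by array, the log2 difference of *BIRC3* minus *BIRC2* was higher in the knockdown by 1.72, in each knockdown array above each mock array. The exact permutation p was 0.333, the smallest the design allows. The genes on either side differed less than *BIRC3* too: the kept probe of *YAP1* had a log2 difference of 0.34 ± 0.20 (SE), and *TMEM123* one of -0.49 ± 0.15.

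*BIRC4* encodes XIAP, the member that inhibits caspases directly, and its 2 probes gave like values. Probe 180953 gave 2.34 and 2.58 in mock and 2.33 and 2.29 in the knockdown. Probe 186150 gave 2.35 and 2.46 in mock and 2.25 and 2.33 in the knockdown. In both, the knockdown arrays were a little under the mock arrays, with log2 differences of -0.09 ± 0.13 and -0.07 ± 0.13. The 95% intervals, 0.735-fold to 1.20-fold and 0.756-fold to 1.20-fold, include no change and leave out a 2-fold one. *BIRC6* encodes a very large IAP that also carries ubiquitin. Its scaled signal was 1.58 and 1.72 in mock and 1.42 and 1.45 in the knockdown, a log2 difference of -0.20 ± 0.13, without overlap but with a limma adjusted p of 0.545.

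The TRAF genes stayed within 2-fold. *TRAF3*, the adaptor that brings NIK to its ligases, gave 1.58 and 1.65 in mock and 1.83 and 2.52 in the knockdown. Groups did not overlap, yet the knockdown arrays lay farther from each other than the lower of them did from mock. The ratio of means was 1.35, the log2 difference 0.41 ± 0.20 and the limma adjusted p 0.402. Without knockdown replicate 2 the log2 difference was 0.18, and without knockdown replicate 1 it was 0.64. *TRAF2*, which recruits cIAP1 and cIAP2, gave 0.153 and 0.167 in mock and 0.178 and 0.180 in the knockdown. Its log2 difference was 0.16 ± 0.13 with an adjusted p of 0.645 in limma, and the sign turned with limma's normexp model and an offset of 50 (-0.44) and with 1 median background taken off per array (-0.67). *TRAF1*, a TRAF without a RING domain that NF-kappaB is also known to induce, gave 0.314 and 0.254 in mock and 0.310 and 0.289 in the knockdown. The knockdown values lay between the mock values, and the log2 difference was 0.08 ± 0.16, with a 95% interval of 0.783-fold to 1.43-fold. With the same 2 alternatives it was 0.42 and 0.71, the latter beyond that interval, with limma adjusted p of 0.371 and 0.251.

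*TNFAIP3*, the gene of A20, was higher in the knockdown with closely matching replicates. Its scaled signal was 0.223 and 0.221 in mock and 0.641 and 0.616 in SOX2 knockdown. Means were 0.222 ± 0.0013 and 0.628 ± 0.018 (SD, n = 2 each). The log2 difference was 1.502 ± 0.12 (SE), with a 95% interval of 2.25-fold to 3.57-fold and a limma adjusted p of 0.0675. By size it ranked 144 of the 21256 probes. *TNIP1* encodes ABIN-1, which binds A20 and ubiquitin chains, and it did not follow *TNFAIP3*. Its scaled signal was 1.24 and 1.36 in mock and 1.36 and 1.34 in the knockdown, overlapping, with a log2 difference of 0.05 ± 0.13 and a 95% interval of 0.813-fold to 1.32-fold. *CFLAR*, the caspase-8 inhibitor, gave 0.327 and 0.453 in mock and 0.349 and 0.300 in the knockdown. The spread of the mock arrays covered 1 of the knockdown arrays. The log2 difference of -0.25 ± 0.21 had the widest 95% interval of the 11 probes on the log2 scale, -0.82 to 0.32 (0.566-fold to 1.25-fold).

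**Figure D2:**
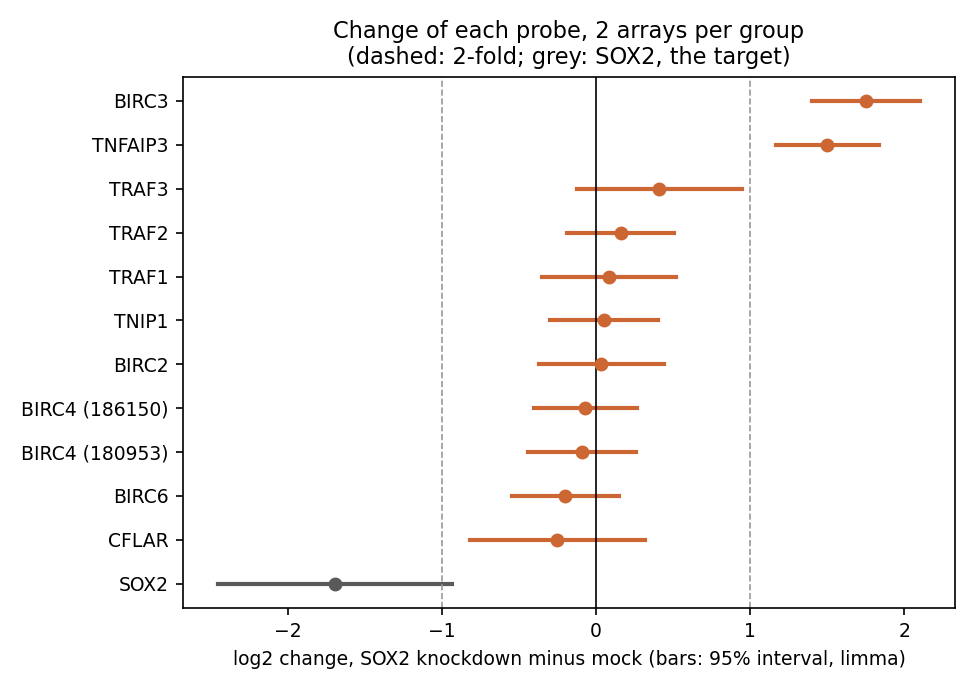
Log2 change of each probe, SOX2 knockdown minus mock, with its 95% interval from limma, 2 arrays per group. Dashed lines mark 2-fold. The intervals of *BIRC3* and *TNFAIP3* lie wholly above 2-fold, and those of the other 9 probes cross 0.

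**Figure D3:**
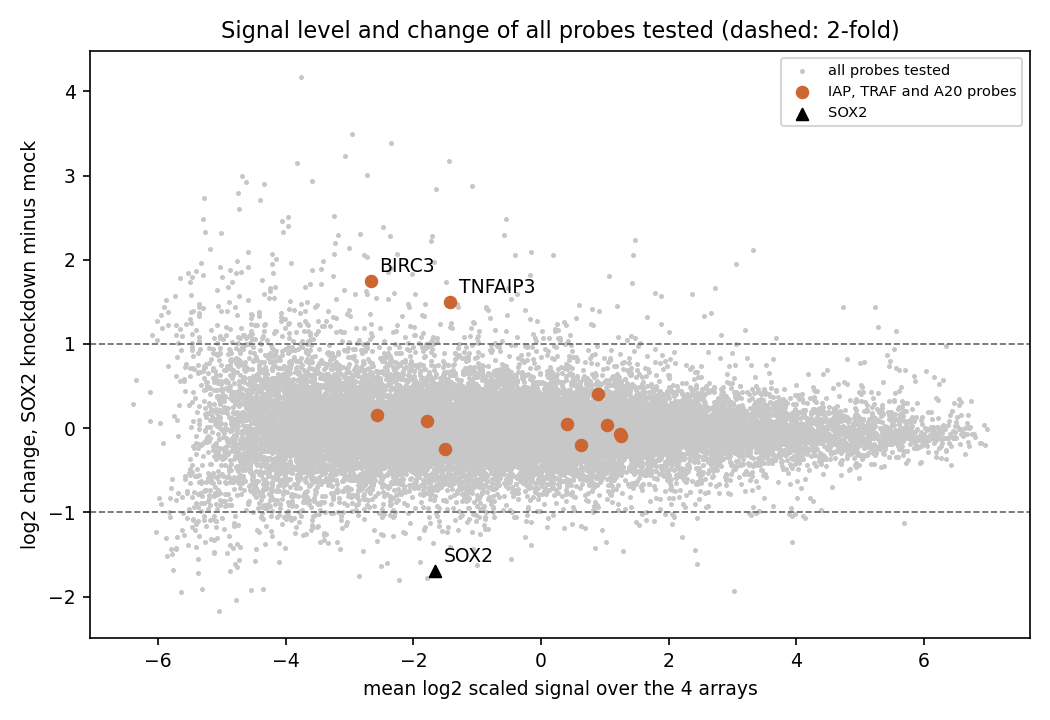
Log2 change (SOX2 knockdown minus mock) against mean log2 scaled signal for the 21256 probes tested, with the 11 probes in orange and *SOX2* as a black triangle. *BIRC3* and *TNFAIP3* lie at the low to middle part of the signal range, above the 2-fold line that 1.57% of probes pass, and the other 9 probes lie in the body of the cloud.

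The readings behind both higher genes were also set out before and after background subtraction, since the median background was 73.8% to 81.4% of the median raw light reading of an array. Background here is the raw reading minus another column, which was read as background-subtracted from its name and values. The raw reading of *BIRC3* was 20236 and 18189 in mock and 20899 and 21533 in the knockdown, so the knockdown arrays read only just above mock. After subtraction the readings were 2291 and 1882 in mock and 7765 and 7704 in the knockdown. For *TNFAIP3* the raw readings were 24106 and 21215 in mock and 29430 and 29285 in the knockdown, and after subtraction 6564 and 4627 against 15690 and 14910. What was removed was lower on the knockdown arrays for these probes and for the array as a whole. Over all probes its median was 17403 and 17048 for the mock pair and 14342 and 13706 for the knockdown pair. With this 1 median per array taken off in place of each probe's own value, the log2 differences were 2.03 ± 0.43 (SE) for *BIRC3* and 1.58 ± 0.16 for *TNFAIP3*. Both SE were larger than in the main setting, and the limma adjusted p was 0.223 and 0.170. Under limma's normexp model, fitted to the raw readings with an offset of 50, the log2 differences were 0.71 and 0.94. Neither gene reached 2-fold there. In scanner units that offset is small beside the subtracted readings of both genes. The sign was the same in all 20 alternatives for both genes. What part array background has in the differences was not tested.

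**Figure D4:**
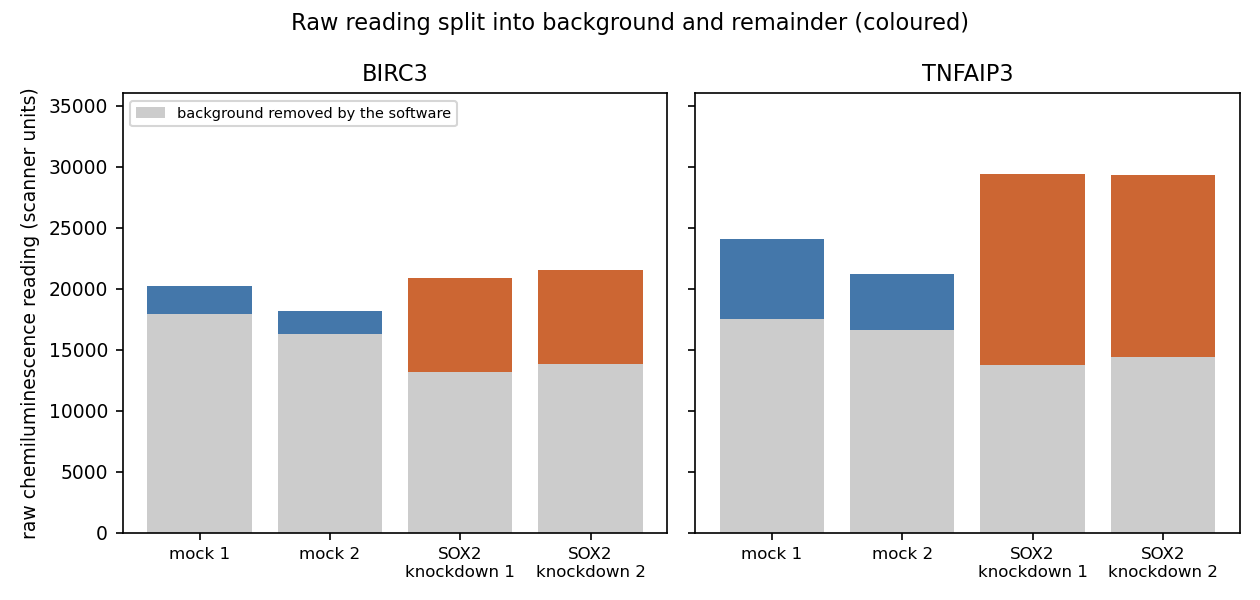
Raw chemiluminescence reading (scanner units) of the *BIRC3* and *TNFAIP3* probes on each array, split into what was read as background removed by the software (grey) and the remainder (blue for mock, orange for SOX2 knockdown). The grey part was 16307 to 17945 in mock and 13135 to 14376 in the knockdown over both probes, and the remainder was larger on every knockdown array.

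The other genes of the pathway were taken as 7 lists with 59 genes, of which 55 had a probe that passed the filter (61 probes). Over 2-fold were 4 of the 61 probes, all higher, and 0 were lower, beside 1.57% and 1.04% of all probes. One of the 4, that of *OTUD7B*, passed the filter through the knockdown group alone, where it was higher, and with S/N over 3 asked on all 4 arrays the count was 3. At an unadjusted limma p under 0.05, 9 were higher and 1 lower, beside 7.90% and 9.16%, and 0 had an adjusted p under 0.05. The median log2 change over the 7 lists was 0.07.

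The NF-kappaB subunits and inhibitors had the highest median, 0.29 over 10 probes, with 8 of the 10 above 0, beside 10593 of 21256 probes, and 2 over 2-fold higher, beside 1.57%. *NFKB2*, whose p100 product NIK causes to be cut to the active p52, gave 0.111 and 0.166 in mock and 0.318 and 0.282 in the knockdown, 2.17-fold higher. *NFKBIE*, an inhibitor of NF-kappaB, gave 1.68 and 1.97 in mock and 3.93 and 3.85 in the knockdown, 2.13-fold higher. Neither gene's groups overlapped, and limma's adjusted p was 0.143 and 0.0987. Among the kinases, *MAP3K14*, the NIK gene that the TRAF and cIAP proteins hold down at the protein level, gave 0.635 and 0.685 in mock and 1.45 and 1.27 in the knockdown. It was 2.06-fold higher (limma adjusted p 0.101), while the other 8 kinase probes ranged from a log2 difference of -0.26 to 0.22, a list median of 0.08. These 3 genes pass 2-fold by little. The pathway count of 4 was 0 without mock replicate 1, 2 without knockdown replicate 1, and 0 with normexp and an offset of 50.

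Of A20 partners and other deubiquitinases, *OTUD7B*, a deubiquitinase related to A20 (Cezanne), gave 0.0281 and 0.0494 in mock and 0.0950 and 0.0721 in the knockdown. S/N was 0.610 and 3.36 in mock and 5.91 and 3.15 in the knockdown. Mock replicate 1 was thus under the detection limit. Mock replicate 2 and knockdown replicate 2 were just above it, and no fold is given. The list's median over 10 probes was 0.14, and its lowest was *CYLD*, another deubiquitinase of the pathway, at -0.41 ± 0.13 (SE) with a limma adjusted p of 0.245. The 2 lists nearest to the members in name held no probe over 2-fold. Among other IAP genes the median was 0.14 over 5 probes. The widest difference was that of a probe of *BIRC5* (survivin, which acts in cell division), 0.39 ± 0.13, and the gene's other probe gave 0.28 ± 0.16. Among other TRAF genes and TRAF partners the median was -0.21 over 11 probes and the widest was *TRAF3IP2* at -0.39 ± 0.22. The IAP antagonists and IAP-bound caspases had a median of 0.02 over 6 probes, the widest being *DIABLO*, which displaces caspases from XIAP, at 0.37 ± 0.13. The TNF receptor complex, with the receptors, *TRADD*, *RIPK1* and the linear ubiquitin ligase, had a median of -0.10 over 10 probes. Its widest was *RNF31* at 0.24 ± 0.16.

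**Figure D5:**
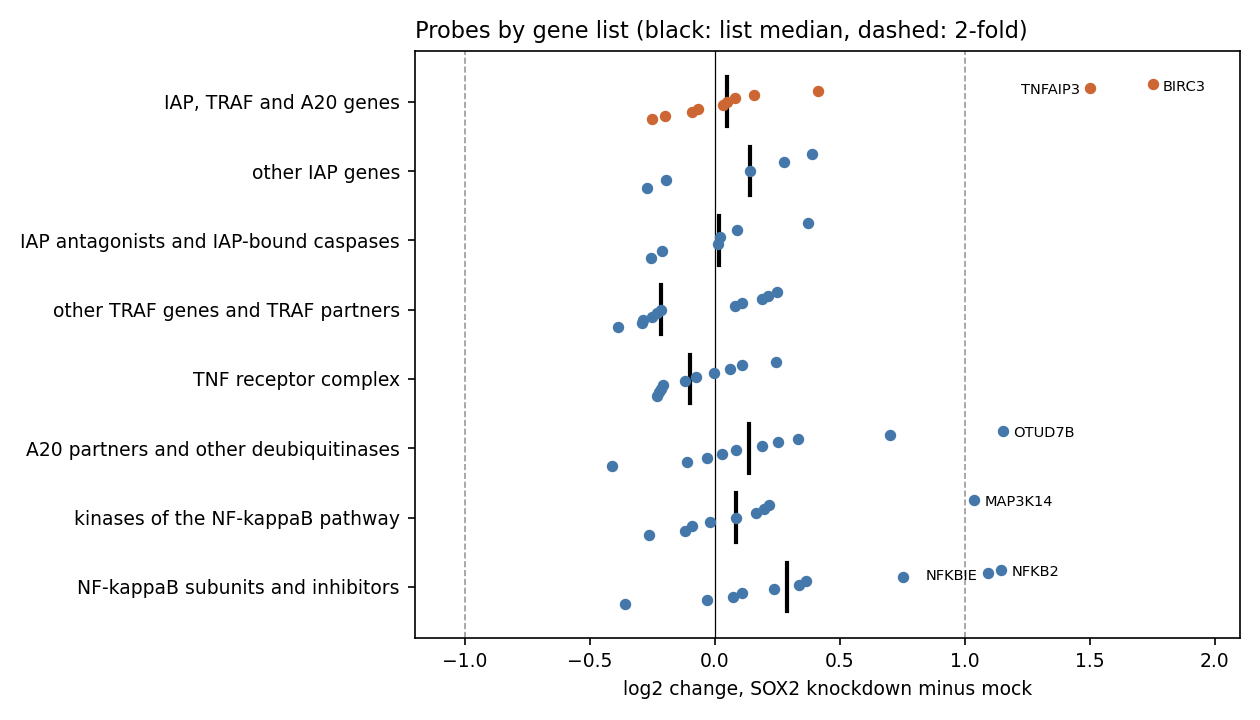
Log2 change (SOX2 knockdown minus mock) of each probe that passed the filter, by gene list, with list medians in black and 2-fold as dashed lines. *BIRC3* and *TNFAIP3* lie farthest right, 4 probes of 3 pathway lists are just past 2-fold, and no probe is past 2-fold on the lower side.

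The genes most like *BIRC3* were looked for over the 4 arrays, among 15882 probes with a symbol and S/N over 3 throughout, by the root mean square distance between log2 signals centred on their own means. The 4 closest were *HMFN0839* (0.05), *GATA6* (0.07), *JUB* (0.08) and *PTHLH* (0.08), on the log2 scale. *GATA6* is a transcription factor, and *PTHLH* encodes a secreted hormone related to parathyroid hormone. *TNFAIP3* ranked 15 at a distance of 0.13. With only 4 arrays, each of these is a gene that differed by about the same amount between the groups.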

How the data were processed

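Groups were taken from the labels' source names and replicate numbers from their titles. The deposited scanner files give linear intensity columns, an S/N score and flags for each feature. The intensity columns are a raw reading, a column read as background-subtracted from its name and values, an assay-normalized signal and a final signal. The software and the meaning of its flags are not given in the sources used here. A second deposited table holds values read as linear ratios, because the authors' methods describe scaling per array and per gene in GeneSpring. Its array medians were 0.103 to 0.105 and its 75th percentiles 0.593 to 0.682. Ratios to each gene's median would lie near 1, so the deposited ratios do not show the scaling per gene. That table was used only as an alternative. Control features were left out here, and so were 210 probes that any array flagged at 5000 or above. The signal was divided by each array's 75th percentile, floored at 0.01 and taken to log2. A probe was kept if each array of 1 group or the other gave it an S/N above 3. Groups were compared by the ratio of linear means (2-fold) and by limma 3.58.1 (R 4.3.3; lmFit and eBayes, no block, two-sided, Benjamini-Hochberg over 21256 probes). All 10 genes were found among the array's gene symbols, as were the 93 genes of the pathway and marker lists. Of these, 9 were found through older symbols listed in RefSeq. Promoters and kappaB matches were read from RefSeq (GRCh38.p14). Genes named were all members, *SOX2*, each pathway gene over 2-fold and the widest difference of each list, and the 5 profiles closest to *BIRC3*, of which the last is not reported here. *CYLD*, *YAP1* and *TMEM123* were added after their values were seen. Members and lists were chosen with earlier results of these data known. The number of arrays, 2 per group, limits the precision.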

Additional observations from a re-analysis of the deposited data

How the results depend on the processing

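The 2 member probes over 2-fold stayed 2 when any 1 array was left out and under each other scaling, floor and filter tried, but were 0 with normexp (run with an offset of 50) and 1 at a 3-fold cutoff. Of the 61 pathway probes, 4 in the main setting, 0 passed with normexp and 0 at 3-fold. At 1.5-fold 6 of the 61 passed, beside 10.5% of all probes tested. Counts over all probes (554) moved more: 220 with normexp, 363 with a floor of 0.05, 302 with S/N over 3 on all 4 arrays, 1373 without the S/N filter, 2234 at 1.5-fold, 119 at 3-fold, 1959 with 1 background per array and 782 to 1192 with 1 array left out. A limma adjusted p under 0.05 was reached by 0 of 11 probes, but by 2 with array median scaling, without further scaling, with the authors' value table and with a mean-variance trend, beside 826, 776, 758 and 287 of all probes, and 5 of all with S/N over 3 on all 4 arrays and 1 with the background-subtracted reading. With array median scaling, no further scaling and the authors' value table, limma gave *SOX2* and each of the 11 probes the same SE. It was 0.288, 0.291 and 0.288, against 0.13 for *BIRC3* in the main setting. Calls under these 3 settings thus rest on 1 shared spread and not on each probe's own replicates. Why the fits differ was not tested. The *SOX2* difference was -1.73, -1.72 and -1.72 with these 3 settings and passed the threshold.

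Signs turned for *BIRC2* (-0.0691 with normexp, -0.10 with 1 background per array, -0.0368 with the background-subtracted reading, -0.0964 to 0.167 with 1 array left out), *TRAF1* (-0.0675 to 0.234 with 1 array left out, but 0.42 with normexp and 0.71 with 1 background per array), *TRAF2* (-0.44 with normexp, -0.67 with 1 background per array) and *TNIP1* (-0.0161 to 0.118 with 1 array left out). Leaving out 1 array gave 1.69 to 1.82 for *BIRC3*, 1.47 to 1.53 for *TNFAIP3* and -1.99 to -1.40 for *SOX2*. An arm left with 1 array is assumed to vary like the other. Same-numbered arrays deviated in opposite directions (correlation -0.48), so that mock replicate 1 went with knockdown replicate 2 and mock replicate 2 with knockdown replicate 1. The labels' numbers thus gave no pairing of like arrays, and whether a batch runs across them was not tested. With the replicate block 1905 probes had an unadjusted limma p under 0.05 against 3626, and 0 an adjusted p under 0.05, as with the crossed pairing (5518 and 0), which changed no call of a member. The crossed pairing, the assay-normalized signal, the background-subtracted reading and the 1 background per array were chosen after seeing the data.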
